A study of Mus musculus with 4 samples.

Results

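The genes described here encode the cell-surface receptors for serotonin, dopamine, noradrenaline and acetylcholine. They were taken from the count tables by symbol. Included was every gene named Htr1 to Htr7, Drd1 to Drd5, Adra1, Adra2, Adrb1 to Adrb3, Chrm1 to Chrm5, Chrna, Chrnb, Chrnd, Chrne or Chrng. This gave 49 of the 22609 genes listed: 14 serotonin, 5 dopamine, 9 adrenergic, 5 muscarinic and 16 nicotinic receptor genes. The RNA came from the hippocampus of ovariectomized C57BL/6 mice in 2 groups of 2 libraries, labelled FLOXED and PELP1 FBKO. PELP1 is a co-regulator of the estrogen receptor, and FBKO stands for a forebrain knockout. Mice of both groups carried mini pumps releasing estradiol (E2), underwent global cerebral ischemia (GCI), in which blood flow to the brain is briefly halted, and were killed at 24 h after flow returned. There was no group without ischemia or without estradiol. The sources used here give neither the Cre line that drives the deletion nor the age of the mice. The comparison asks which receptor transcripts differ with genotype once hippocampus exposed to estradiol has been injured.

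The cell bodies that release these transmitters lie outside the hippocampus, in the raphe nuclei for serotonin, the midbrain for dopamine, the locus coeruleus for noradrenaline and the medial septum for acetylcholine. Their axons end in the hippocampus, where the receptors sit on pyramidal cells, granule cells, interneurons, glia and vessels. Most of the receptors act through a G protein. Gs raises cyclic AMP, Gi lowers it and Gq activates phospholipase C. The nicotinic receptors and the serotonin receptor built from Htr3 subunits are instead ion channels opened by the transmitter itself.

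Reads assigned to genes came to between 17524594 and 22447658 per library, of which 14192 to 18958 fell on the 49 receptor genes. Entries for alignment to more than 1 place made up 38.5% to 47.7% of all entries counted, with the highest share in FLOXED 1. They are not necessarily distinct reads, and none was assigned to a gene. Pelp1, the targeted gene, stood at 26.7 and 26.3 CPM (counts scaled to library size, adjusted by the TMM method) in the FLOXED libraries against 18.0 and 17.3 CPM in the PELP1 FBKO libraries, with a log2 fold change of -0.59 (edgeR, adjusted p = 0.130). Hippocampal markers were present in each library: summed levels ran from 771 to 1196 CPM for 12 CA1 markers, from 579 to 872 CPM for 15 dentate granule cell markers and from 1859 to 2256 CPM for 15 CA2 and CA3 markers.

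Of the 49 receptor genes, 36 had enough reads for the genotype test. None of them passed an adjusted p of 0.05 (edgeR quasi-likelihood, adjusted over all 14978 genes tested), and 0% of all tested genes did so. At an unadjusted p under 0.05 the receptors higher in PELP1 FBKO were Htr7, Drd2 and Chrnb1, which is 3 of 36, against 10.1% of all tested genes. The lower ones were Adra2c, Drd5 and Adra1d, again 3 of 36, against 5.55% of all tested genes. Together they are 6 of 36, against 15.6% of all tested genes, so the shares lie near the background. DESeq2 and edgeR's exact test each called 1 receptor at an adjusted p under 0.05, Adra2c, where they called 3.09% and 5.07% of all genes, while limma-voom called 0 receptors and 0% of all genes. The median log2 fold change of the 36 genes was 0.02, against 0.00 over all genes tested. Both PELP1 FBKO libraries lay above both FLOXED libraries in 12 of the 36 genes (25.4% of all tested genes) and below them in 7 (23.0% of all tested genes). The genotypes overlapped in the other 17, and did not overlap in 48.4% of all tested genes. In whole tissue, a different number of cells of a type and a different amount of RNA per cell cannot be told apart.

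**Figure D1:**
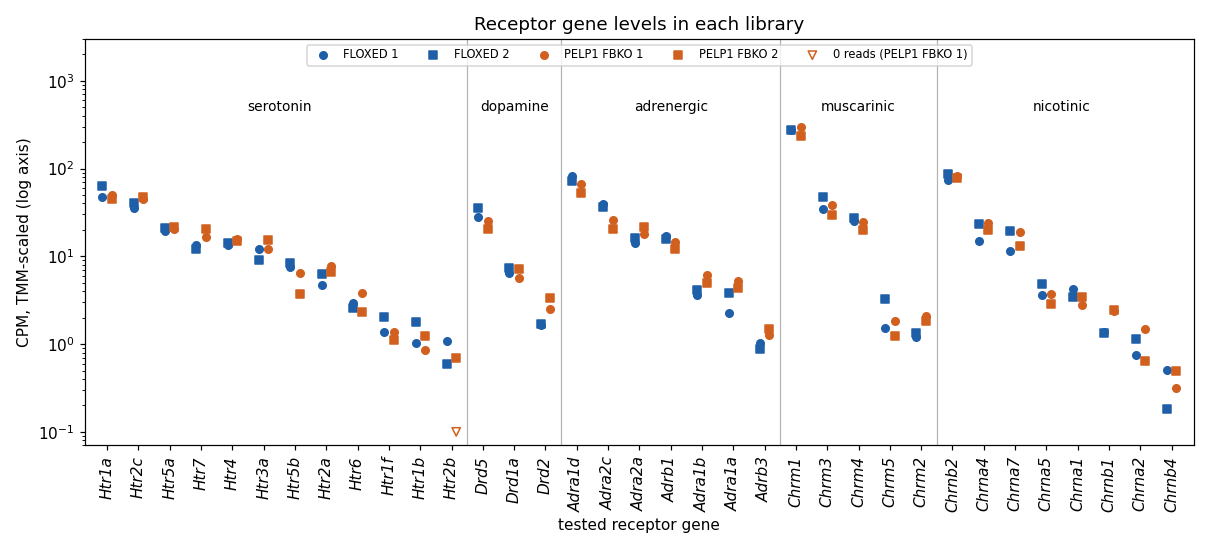
Level of 35 of the 36 tested receptor genes in CPM, on a log axis, with 1 point per library, coloured by genotype and shaped by replicate number. Chrm1 lies at 237 to 295 CPM, above the other genes, and the open triangle marks the 0 reads of Htr2b in PELP1 FBKO 1.

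Of the 6 genes with an unadjusted p under 0.05, 5 have a promoter in the RefSeq table used here, and the 250 bases before the start site are shown for these, 5′ to 3′ on the gene's strand, from build GRCm38.p6. The deposited counts themselves carry no coordinates. Capitals mark GGTCA, the repeated unit of the estrogen response element, TGACG, the core of the cyclic AMP response element, and the GC box GGGCGG, each on either strand.
Adra2c, chr5:35278316-35278565, + strand: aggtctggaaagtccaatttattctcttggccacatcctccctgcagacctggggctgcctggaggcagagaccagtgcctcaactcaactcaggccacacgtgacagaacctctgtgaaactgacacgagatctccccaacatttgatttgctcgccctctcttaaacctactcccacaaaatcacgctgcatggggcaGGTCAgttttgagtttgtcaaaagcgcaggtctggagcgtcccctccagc
Drd5, chr5:38319259-38319508, + strand: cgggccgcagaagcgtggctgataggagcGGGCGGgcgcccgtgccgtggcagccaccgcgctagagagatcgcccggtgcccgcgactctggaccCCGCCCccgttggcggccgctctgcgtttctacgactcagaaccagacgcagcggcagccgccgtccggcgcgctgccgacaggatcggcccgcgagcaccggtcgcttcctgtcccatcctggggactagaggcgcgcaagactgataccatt
Htr7, chr19:36057361-36057610, - strand: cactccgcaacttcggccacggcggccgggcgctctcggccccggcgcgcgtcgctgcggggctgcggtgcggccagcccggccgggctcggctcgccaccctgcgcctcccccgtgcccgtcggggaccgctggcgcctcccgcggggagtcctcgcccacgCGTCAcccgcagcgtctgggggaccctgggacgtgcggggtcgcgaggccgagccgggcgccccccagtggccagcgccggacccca
Drd2, chr9:49340153-49340402, + strand: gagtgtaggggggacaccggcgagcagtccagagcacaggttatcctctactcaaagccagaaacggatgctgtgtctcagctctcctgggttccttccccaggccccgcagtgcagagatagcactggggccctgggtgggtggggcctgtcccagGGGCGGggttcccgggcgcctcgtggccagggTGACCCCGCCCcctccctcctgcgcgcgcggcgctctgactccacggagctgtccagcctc
Chrnb1, chr11:69795938-69796187, - strand: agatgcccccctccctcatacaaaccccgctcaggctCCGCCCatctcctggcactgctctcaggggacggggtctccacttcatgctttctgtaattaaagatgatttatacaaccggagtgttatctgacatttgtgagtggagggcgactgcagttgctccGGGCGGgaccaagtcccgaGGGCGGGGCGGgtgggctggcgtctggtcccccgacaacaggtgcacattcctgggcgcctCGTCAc
Among the receptor genes, 37 of 49 had a promoter in the table. GGTCA occurred in 15 of these 37 (40.5%) and in 38.4% of all 27025 genes with a promoter. TGACG occurred in 6 (16.2%) against 19.8%, the AP-1 motif TGANTCA in 4 (10.8%) against 7.82% and GGGCGG in 19 (51.4%) against 35.4%. The full cyclic AMP response element TGACGTCA was in 0 of the 37 and in 1.77% of all. The palindromic estrogen response element, GGTCA facing its reverse complement across 3 bases, was in 0 of the 37 and in 0.0666% of all. The Adra2c window holds 1 GGTCA and the Drd2 window 1 on the opposite strand, while in the Drd5 window the GC box is the only one of these motifs. All matches were sought on both strands, and TGACG is part of the full element, so the counts of these motifs overlap. A match describes these letters and was not set against binding of any factor.

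Across adrenergic receptor genes, those for the alpha-2C, alpha-1D and beta-1 receptors were lower in both PELP1 FBKO libraries, and those for alpha-1A, alpha-1B, alpha-2A and beta-3 were higher in both. By comparison, 23.0% of all tested genes were lower in both PELP1 FBKO libraries and 25.4% were higher in both. Adra2c, which encodes a Gi-coupled receptor that also restrains noradrenaline release, was at 39.4 and 36.3 CPM in the FLOXED libraries against 25.8 and 20.2 CPM in the PELP1 FBKO libraries. The genotypes did not overlap, and each PELP1 FBKO library was below the lower FLOXED library by more than the FLOXED libraries differed. Its log2 fold change was -0.72 (SE 0.166), the smallest p of any receptor gene, but it did not pass over all genes (edgeR, adjusted p = 0.111). It passed with DESeq2 (adjusted p = 0.0220), with edgeR's exact test (adjusted p = 0.0125), with the replicate number as a block (edgeR, adjusted p = 0.0356, where 3.78% of all genes passed) and without PELP1 FBKO 1 (log2 fold change -0.92, edgeR, adjusted p = 0.0250, where 3.67% passed). Over the 11 alternatives run its log2 fold change stayed negative, and its adjusted p ranged from 0.0125 to 0.345.

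Adra1d encodes a Gq-coupled receptor and had the highest level per kilobase of the adrenergic receptor genes. It was at 81.2 and 72.0 CPM in the FLOXED libraries against 66.7 and 52.2 CPM in the PELP1 FBKO libraries, a log2 fold change of -0.37 (SE 0.156; edgeR, adjusted p = 0.314). The PELP1 FBKO values were the lower ones, and the value nearest to FLOXED came from PELP1 FBKO 1. A gene model named Gm14285 shares exonic bases with Adra1d in GENCODE, and reads from the shared bases cannot be assigned with certainty. Its log2 fold change was -0.20 without PELP1 FBKO 2 and -0.57 without PELP1 FBKO 1. Adrb1, which encodes the Gs-coupled beta-1 receptor, was at 17.2 and 15.9 CPM in the FLOXED libraries against 14.4 and 12.1 CPM in the PELP1 FBKO libraries (log2 fold change -0.32, SE 0.174).

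The Gq-coupled alpha-1A and alpha-1B receptor genes were less abundant and lay on the other side. Adra1a was at 2.28 and 3.83 CPM in the FLOXED libraries against 5.21 and 4.41 CPM in the PELP1 FBKO libraries, from 40 to 115 reads per library. Adra1b was at 3.65 and 4.11 CPM against 6.17 and 4.996 CPM. Neither gene overlapped between genotypes, and their log2 fold changes were 0.64 (SE 0.306) and 0.52 (SE 0.242). Adra2a, the main Gi-coupled autoreceptor gene of noradrenergic neurons, was at 14.3 and 16.2 CPM in the FLOXED libraries against 17.7 and 21.6 CPM in the PELP1 FBKO libraries, a log2 fold change of 0.36 (SE 0.176). Adrb3 rested on 18 to 30 reads per library, with a log2 fold change of 0.53 (SE 0.373), and shares exonic bases with the gene model Gm45470. None of these 4 passed over all genes (edgeR, adjusted p from 0.349 to 0.534). Adra2b had 1 to 6 reads per library and was not tested.

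**Figure D2:**
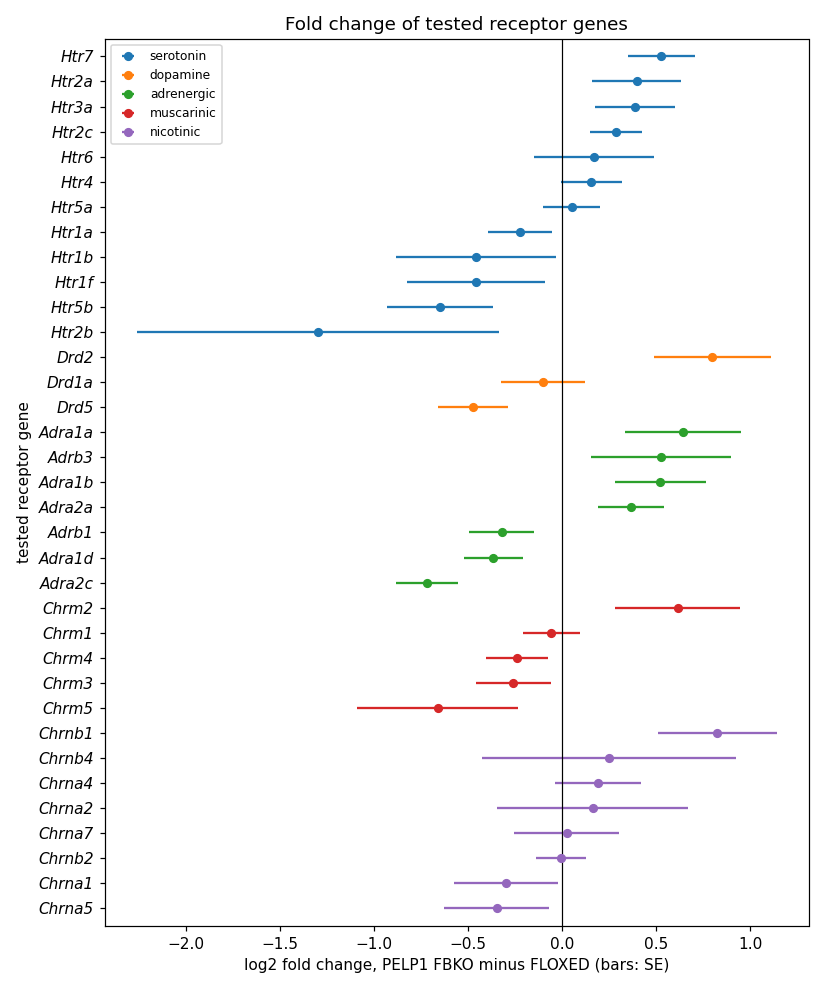
Log2 fold change (PELP1 FBKO minus FLOXED) of 35 of the 36 tested receptor genes with its standard error, coloured by receptor family. Adra2c at -0.72 has the smallest p, and genes on both sides of 0 appear in each family.

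Among dopamine receptor genes, the Gs-coupled Drd5 had the highest level per kilobase and was lower in PELP1 FBKO, while the Gi-coupled Drd2 was higher. Drd5, whose receptor is found on hippocampal pyramidal cells, was at 27.9 and 35.8 CPM in the FLOXED libraries against 25.6 and 20.3 CPM in the PELP1 FBKO libraries. The log2 fold change was -0.47 (SE 0.187; edgeR, adjusted p = 0.276), and the gap between the nearest libraries of the genotypes was smaller than the difference within FLOXED. Drd5 shares exonic bases with the gene model Gm26560. Drd2 was at 1.65 and 1.71 CPM in the FLOXED libraries against 2.54 and 3.33 CPM in the PELP1 FBKO libraries, from 29 to 68 reads per library. Here the FLOXED libraries were close together and both PELP1 FBKO libraries were above them, with a log2 fold change of 0.80 (SE 0.309; edgeR, adjusted p = 0.269). Drd1a, the other Gs-coupled gene, overlapped between genotypes at 6.44 and 7.34 CPM against 5.67 and 7.20 CPM. Drd3 had 0 or 1 read and Drd4 had 1 to 4 reads per library.

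Drd1a and Drd2 are also the defining receptors of striatal projection neurons. Another 12 striatal markers in the files summed to 243 and 266 CPM in FLOXED and to 285 and 269 CPM in PELP1 FBKO. Of the 11 tested, 8 had a positive log2 fold change and 0 passed an adjusted p of 0.05 (edgeR). With no adjustment 3 had p under 0.05, all higher, against 10.1% of all tested genes. DESeq2 called 1 higher, against 3.09% of all genes called. Their part in the Drd2 values was not tested.

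Of the 12 tested serotonin receptor genes 7 had a positive log2 fold change, all Gs-coupled, Gq-coupled or channel genes but for Htr5a. The other 5 had a negative one, all Gi-coupled but for the Gq-coupled Htr2b, so Gi and Gq genes lay on both sides. Htr7, a Gs-coupled receptor gene, was at 13.5 and 12.2 CPM in the FLOXED libraries against 16.8 and 20.3 CPM in the PELP1 FBKO libraries. The genotypes did not overlap, and the log2 fold change was 0.53 (SE 0.177; edgeR, adjusted p = 0.215). It ranged from 0.38 to 0.64 with each library left out in turn. Htr4, also Gs-coupled, was at 13.5 and 14.1 CPM against 15.6 and 15.1 CPM (log2 fold change 0.16, SE 0.162). Htr6, the remaining Gs-coupled gene, overlapped between genotypes at 2.35 to 3.81 CPM.

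Htr2c and Htr2a encode Gq-coupled receptors, and both were above FLOXED in both PELP1 FBKO libraries. Htr2c, whose level per kilobase was the highest of the serotonin receptor genes after Htr1a, was at 35.6 and 40.1 CPM in the FLOXED libraries against 44.5 and 48.0 CPM in the PELP1 FBKO libraries, a log2 fold change of 0.29 (SE 0.139; edgeR, adjusted p = 0.371). Htr2c is strongly expressed in the choroid plexus as well as in neurons. The 15 choroid plexus markers summed to 484 and 242 CPM in FLOXED and to 291 and 290 CPM in PELP1 FBKO. Transthyretin (Ttr) made up 324 CPM of the sum in FLOXED 1 and 67.5 CPM in FLOXED 2, against 21.4 and 33.9 CPM in PELP1 FBKO. Its log2 fold change was -2.82 (SE 0.624), and that of Steap1, from 1 to 22 reads per library, was -2.02 (SE 0.733). Without Ttr the other 14 markers summed to 160 and 174 CPM in FLOXED against 269 and 256 CPM in PELP1 FBKO, most of it from Enpp2, a gene that oligodendrocytes also express, at 118 and 131 against 227 and 210 CPM (log2 fold change 0.81). Without both genes the sums were 41.9 and 43.1 CPM against 42.6 and 46.4 CPM. Of the 11 markers tested 7 had a positive log2 fold change and 0 passed an adjusted p of 0.05 (edgeR). With no adjustment 1 was higher and 2 were lower at p under 0.05, against 10.1% and 5.55% of all tested genes. DESeq2 called 1 higher, against 3.09% of all genes called. Their part in the Htr2c values was not tested. Htr2a was at 4.68 and 6.23 CPM against 7.84 and 6.56 CPM (log2 fold change 0.40, SE 0.237).

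Htr2b, the third Gq-coupled gene, had 19 and 13 reads in the FLOXED libraries but 0 in PELP1 FBKO 1, against 14 in PELP1 FBKO 2. The 0 reads allow up to 0.134 CPM in that library (3 reads as the limit, unscaled, counting error only), and PELP1 FBKO 2 lay at 0.686 CPM, inside the FLOXED values of 1.08 and 0.600 CPM. The genotypes therefore overlapped, and the difference rests on 1 library: without PELP1 FBKO 2 the gene passed over all genes (edgeR, adjusted p = 0.00396, where 3.92% of all genes passed), and without PELP1 FBKO 1 the log2 fold change was -0.29. Htr2b shares exonic bases with Psmd1 in GENCODE.

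Htr3a, the channel subunit found in a class of interneurons, was at 12.03 and 9.04 CPM in the FLOXED libraries against 12.2 and 15.3 CPM in the PELP1 FBKO libraries. FLOXED 1 and PELP1 FBKO 1 nearly coincided, and the log2 fold change was 0.39 (SE 0.213; edgeR, adjusted p = 0.424). The other 19 interneuron markers summed to 1760 and 1719 CPM in FLOXED and to 2113 and 2141 CPM in PELP1 FBKO. Of these, 17 had a positive log2 fold change and 0 passed an adjusted p of 0.05 (edgeR). With no adjustment 11 were higher and 1 lower at p under 0.05, against 10.1% and 5.55% of all tested genes. By DESeq2 6 were called higher and 1 lower, against 3.09% of all genes called. Htr3b had 1 read in FLOXED 1 and 0 in the other libraries.

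The Gi-coupled Htr1a, the postsynaptic receptor of pyramidal and granule cells with the highest level per kilobase of the serotonin receptor genes, was at 47.1 and 64.0 CPM in the FLOXED libraries against 50.5 and 44.8 CPM in the PELP1 FBKO libraries. FLOXED 2 stood above the other libraries, which overlapped between genotypes, and without it the log2 fold change went from -0.22 to 0.00. Htr5b was at 7.64 and 8.40 CPM in the FLOXED libraries against 6.48 and 3.72 CPM in the PELP1 FBKO libraries, a log2 fold change of -0.65 (SE 0.283; edgeR, adjusted p = 0.322). Its level was lowest in PELP1 FBKO 2, and the log2 fold change was -1.13 without PELP1 FBKO 1, a fit that rests on PELP1 FBKO 2 alone for that genotype. With each library left out in turn it ranged from -1.13 to -0.31. The related Htr5a overlapped between genotypes, at 19.5 and 20.8 CPM against 20.5 and 21.4 CPM (log2 fold change 0.05, SE 0.152). Htr1f and Htr1b rested on 18 to 44 reads per library, with log2 fold changes of -0.46 (SE 0.369) and -0.46 (SE 0.426), and Htr1b shares exonic bases with D430036J16Rik. Htr1d had 3 to 6 reads per library.

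Among muscarinic receptor genes, Chrm1 differed least and Chrm2 was higher in both PELP1 FBKO libraries. Chrm1, the Gq-coupled receptor of pyramidal and granule cells, was at 277 and 276 CPM in the FLOXED libraries against 295 and 237 CPM in the PELP1 FBKO libraries. The FLOXED values lay between the PELP1 FBKO values, and the log2 fold change was -0.06 (SE 0.152). Chrm1 contains the small RNA gene model Gm22820 in its exons. Chrm3, also Gq-coupled, was at 34.3 and 46.9 CPM against 38.5 and 29.5 CPM, which overlap (log2 fold change -0.26, SE 0.198).

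Chrm4, a Gi-coupled receptor gene, was below FLOXED in both PELP1 FBKO libraries, at 25.1 and 27.5 CPM against 24.4 and 20.2 CPM (log2 fold change -0.24, SE 0.164). FLOXED 1 and PELP1 FBKO 1 differed by less than the libraries within either genotype. Chrm2, the Gi-coupled receptor of cholinergic terminals and interneurons, was at 1.20 and 1.34 CPM in the FLOXED libraries against 2.09 and 1.81 CPM in the PELP1 FBKO libraries, from 21 to 46 reads per library. Its log2 fold change was 0.62 (SE 0.333; edgeR, adjusted p = 0.418), and the gene model 9330158H04Rik shares some of its exonic bases. Chrm5 was at 1.54 and 3.23 CPM against 1.81 and 1.22 CPM, with FLOXED 2 above the rest. Its log2 fold change was -0.66 (SE 0.429) and -0.03 without FLOXED 2.

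**Figure D3:**
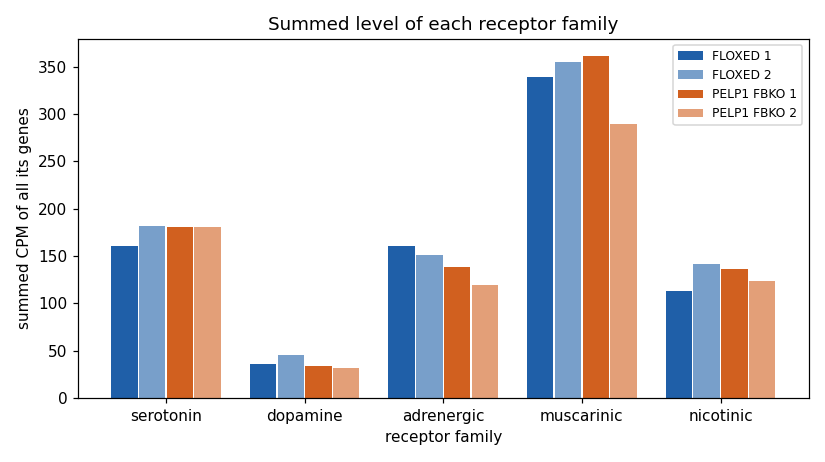
Summed CPM of all genes of each receptor family, with 1 bar per library. The muscarinic genes take the most reads in every library, at 290 to 362 CPM, and the adrenergic sum is 161 and 151 CPM in FLOXED and 139 and 119 CPM in PELP1 FBKO.

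The nicotinic subunit genes of the main brain receptors, Chrnb2, Chrna4 and Chrna7, overlapped between genotypes. Chrnb2, which pairs with Chrna4 in the high-affinity nicotinic receptor, was at 74.6 and 86.2 CPM in the FLOXED libraries against 81.2 and 79.0 CPM in the PELP1 FBKO libraries. Its log2 fold change was -0.01 (SE 0.132), and it shares exonic bases with Adar. Chrna4 was at 15.1 and 23.5 CPM against 24.2 and 19.9 CPM (log2 fold change 0.19, SE 0.229). Chrna7, which forms the calcium-permeable receptor of one subunit type, was at 11.6 and 19.6 CPM against 18.9 and 13.0 CPM (log2 fold change 0.03, SE 0.279). In Chrna4 and Chrna7 FLOXED 1 was lowest, and with each library left out their log2 fold changes ran from -0.09 to 0.54 and from -0.30 to 0.44.

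Chrnb1, a subunit of the muscle receptor that is also transcribed outside muscle, was at 1.37 and 1.34 CPM in the FLOXED libraries against 2.36 and 2.45 CPM in the PELP1 FBKO libraries. The libraries of each genotype were close together, and the log2 fold change of 0.83 (SE 0.314; edgeR, adjusted p = 0.264) was the highest of any receptor gene, from 24 to 52 reads per library. It ranged from 0.80 to 0.84 with each library left out in turn. The other muscle subunit with enough reads, Chrna1, overlapped between genotypes at 2.77 to 4.28 CPM (log2 fold change -0.30, SE 0.277). The accessory subunit gene Chrna5 was at 3.65 and 4.80 CPM against 3.76 and 2.89 CPM (log2 fold change -0.35, SE 0.280). Chrna2, a subunit gene of a class of interneurons, overlapped at 0.637 to 1.496 CPM, and Chrnb4 had 4 to 10 reads per library.

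Of the 13 receptor genes without enough reads, 8 are nicotinic. Chrna3 had 7 to 12 reads per library, Chrnb3 1 to 10, Chrna6 1 to 5 and Chrne 1 to 10. Chrna10 had 0 reads in both FLOXED libraries and 4 and 6 in the PELP1 FBKO libraries, and it shares exonic bases with Art1. Chrng had 0 reads in all 4 libraries, for a limit of 0.171 CPM in FLOXED 1, the shallowest, Chrnd had 2 reads in FLOXED 2 and 0 elsewhere, and Chrna9 had 0 to 5. Chrna3, Chrnb3 and Chrnb4 mark the habenula, and the other 6 habenular markers summed to 35.5 and 61.2 CPM in FLOXED and to 35.8 and 41.9 CPM in PELP1 FBKO.

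**Figure D4:**
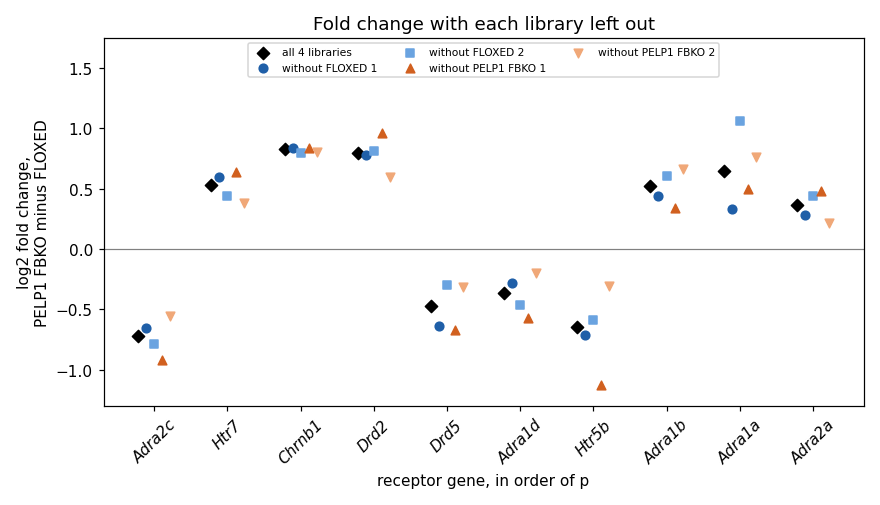
Log2 fold change (PELP1 FBKO minus FLOXED) of the 10 receptor genes with the smallest p, from all 4 libraries and with each library left out in turn. The genotypes did not overlap in any of the 10 genes, so leaving out 1 library could hardly change their side of 0. The estimate for Htr5b extends from -0.31 to -1.13.

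Per kilobase of the longest coding transcript, Chrm1 had the highest mean over the 4 libraries at 43.3 CPM per kilobase (RPKM), and its lowest library, 37.8, was still below the highest of Adra1d, 42.7. Adra1d had a mean of 35.8 RPKM, with a transcript model that holds 210 bases outside the coding part. The models of Chrm4 and Chrm5 hold no untranslated bases, so their levels per length are not set against the others. Chrnb2 (12.5 RPKM) and Htr1a (11.5 RPKM) followed, with overlapping libraries. The means of Adra2c, Drd5, Htr2c and Chrm3 lay between 8.60 and 8.83 RPKM and did not separate. Chrnb4 was the lowest tested gene at 0.101 RPKM.

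Grouped by coupling, none of the classes had receptor genes on one side alone. Of 10 tested Gi-coupled genes 4 had a positive and 6 a negative log2 fold change, with a median of -0.23. The 9 Gq-coupled genes split into 4 and 5 (median -0.06), the 8 Gs-coupled genes into 5 and 3 (0.08) and the 9 channel subunit genes into 6 and 3 (0.16). Over all tested genes 50.0% had a positive value, and the median was 0.00. Grouped by CPM, the 12 receptor genes with the most reads, at a mean of 17.4 CPM or more, had 4 positive and 8 negative values (median -0.14). Among all 8765 tested genes at that level 42.4% were positive (median -0.04). The 12 with the fewest reads, at a mean of 2.91 CPM or less, had 8 positive and 4 negative values (median 0.17), and among all 2397 tested genes at that level 62.3% were positive (median 0.18).

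Among genes that make, carry or break down the transmitters, those typical of the releasing neurons ranged from 0 reads to 329 reads per library. The highest count was that of Ddc in PELP1 FBKO 1. The vesicular monoamine transporter gene Slc18a2 was at 8.16 and 10.8 CPM in the FLOXED libraries against 11.2 and 14.0 CPM in the PELP1 FBKO libraries, from 143 to 286 reads (log2 fold change 0.41, SE 0.215). The noradrenaline transporter gene Slc6a2 had 0 reads in every library, the serotonin transporter gene Slc6a4 had 0 to 6 reads, and the choline acetyltransferase gene Chat had 0 reads in FLOXED and 2 and 8 in PELP1 FBKO. Of 16 tested monoamine genes 0 passed an adjusted p of 0.05 (edgeR). With no adjustment 3 were higher and 1 lower at p under 0.05, against 10.1% and 5.55% of all tested genes. DESeq2 called 1 higher, against 3.09% of all genes called. Ddc, which encodes the decarboxylase that forms dopamine and serotonin, was at 4.51 and 5.49 CPM in the FLOXED libraries against 14.9 and 14.3 CPM in the PELP1 FBKO libraries. Its log2 fold change was 1.54 (SE 0.197), with an adjusted p of 0.0501 (edgeR). That was the smallest adjusted p of any gene in the fit, and marker genes such as Id4, Agt, Gja1 and Padi2 had the same value. Maob, a monoamine oxidase of glia, was at 21.7 and 21.4 CPM against 33.3 and 32.2 CPM (log2 fold change 0.61, SE 0.143). Qdpr, which regenerates the cofactor of the hydroxylases, differed by a log2 fold change of 0.48 (SE 0.140), whereas for Dbh, the noradrenaline-forming enzyme, it was -1.09 (SE 0.341). Thus 3 of these 4 genes, named for the smallest p of their list, were higher in both PELP1 FBKO libraries and Dbh was lower in both.

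For acetylcholine, 4 of 8 genes were tested and 0 passed an adjusted p of 0.05 (edgeR). With no adjustment 2 were higher and 0 lower at p under 0.05, against 10.1% and 5.55% of all tested genes. DESeq2 called 1 higher, against 3.09% of all genes called. The choline transporter-like gene Slc44a1 was at 59.7 and 80.9 CPM in the FLOXED libraries against 125 and 139 CPM in the PELP1 FBKO libraries, a log2 fold change of 0.91 (SE 0.169; edgeR, adjusted p = 0.0766). Prima1, which anchors acetylcholinesterase in the membrane, had a log2 fold change of 1.20 (SE 0.362) from 14 to 48 reads per library, and Bche, butyrylcholinesterase, 0.61 (SE 0.272). Ache, the acetylcholinesterase gene, overlapped between genotypes at 69.9 and 76.2 against 71.2 and 76.1 CPM.

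Receptor kinases and arrestins silence active receptors, and RGS proteins switch off Gi and Gq signals. Of 21 tested genes of these kinds 0 passed an adjusted p of 0.05 (edgeR). With no adjustment 0 were higher and 4 lower at p under 0.05, against 10.1% and 5.55% of all tested genes. DESeq2 called 2 lower, against 3.09% of all genes called. Rgs2, a brake on Gq signals, was at 125 and 99.3 CPM in the FLOXED libraries against 47.5 and 68.6 CPM in the PELP1 FBKO libraries (log2 fold change -0.95, SE 0.199). Rgs4 was at 372 and 381 CPM against 224 and 279 CPM (log2 fold change -0.58, SE 0.154), while Rgs7 differed by -0.37 (SE 0.122), as did the arrestin gene Arrb2 (-0.37, SE 0.144). In Rgs2 and Rgs4 the lowest library was PELP1 FBKO 1.

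Among 13 G protein alpha subunit genes 0 passed an adjusted p of 0.05 (edgeR) and 0 were called by DESeq2. With no adjustment, against 10.1% and 5.55% of all tested genes, 3 were higher and 0 lower at p under 0.05. These were Gna12 with a log2 fold change of 0.42 (SE 0.129), the Gs-like Gnal with 0.39 (SE 0.129) and Gna13 with 0.30 (SE 0.130), while Gnai2 had 0.25 (SE 0.143). Of 27 effector genes 0 passed (edgeR). With no adjustment 4 were higher and 0 lower at p under 0.05, against 10.1% and 5.55% of all tested genes. DESeq2 called 1 higher, against 3.09% of all genes called. Ppp1r1b, the dopamine-regulated phosphatase inhibitor, was at 50.4 and 45.2 CPM in the FLOXED libraries against 77.7 and 66.1 CPM in the PELP1 FBKO libraries (log2 fold change 0.59, SE 0.142). The phospholipase C genes Plcb2, Plcb3 and Plcb4 had log2 fold changes of 1.17 (SE 0.290), 0.43 (SE 0.178) and 0.87 (SE 0.261).

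Of 13 tested chaperone and modulator genes of nicotinic and Htr3 receptors, 0 passed an adjusted p of 0.05 (edgeR). With no adjustment 3 were higher and 1 lower at p under 0.05, against 10.1% and 5.55% of all tested genes. DESeq2 called 1 higher, against 3.09% of all genes called. Lypd6, which encodes a toxin-like modulator of nicotinic receptors, was at 21.2 and 21.1 CPM in the FLOXED libraries against 36.6 and 31.1 CPM in the PELP1 FBKO libraries (log2 fold change 0.68, SE 0.154). Its neighbour in sequence family, Lypd6b, had a log2 fold change of 0.84 (SE 0.196), Ly6g6e -0.84 (SE 0.232) and the muscle kinase gene Musk 1.67 (SE 0.579) from 3 to 23 reads per library. The nicotinic subunits Chrna4, Chrnb2 and Chrna7 overlapped between the same libraries.

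Marker sums of CA1 cells, granule cells, glia and vessels did not overlap between the genotypes, while no single marker of any list passed an adjusted p of 0.05 (edgeR). All 12 CA1 markers had a negative log2 fold change, with summed levels of 1049 and 1196 CPM in FLOXED and 864 and 771 CPM in PELP1 FBKO, and the lead genes Fibcd1, Pou3f1, Lefty1 and Ndst4 at -0.65, -0.93, -1.04 and -0.87. Of these 12 genes 0 passed an adjusted p of 0.05 (edgeR), against 7 lower with no adjustment at p under 0.05 and 6 called lower by DESeq2. For this and the lists below, 10.1% of all tested genes were higher and 5.55% lower at p under 0.05 with no adjustment. DESeq2 called 3.09% of all genes, in either direction. The 15 dentate granule cell markers summed to 579 and 645 CPM in FLOXED against 872 and 701 CPM in PELP1 FBKO, with 11 positive and 4 negative, and with no adjustment 6 were higher and 1 lower at p under 0.05, with 2 called higher by DESeq2. The 15 CA2 and CA3 markers overlapped at 1977 and 2230 against 2256 and 1859 CPM, with 9 positive and 6 negative, 3 higher and 1 lower at p under 0.05 with no adjustment and 0 called by DESeq2. Oligodendrocyte markers summed to 3714 and 4674 CPM against 6983 and 7796 CPM, with 17 of 18 positive. Astrocyte markers summed to 6972 and 7864 CPM against 9126 and 11130 CPM, with 18 of 18 positive, endothelial and mural markers to 384 and 514 against 621 and 594 CPM, with 21 of 22 positive, and microglia markers to 1061 and 972 against 1120 and 1549 CPM, with 16 of 20 positive. DESeq2 called 12 oligodendrocyte, 9 astrocyte, 2 endothelial or mural and 4 microglia markers higher and 1 microglia marker lower, where edgeR's quasi-likelihood test called 0 of each, with 14, 11, 8 and 7 higher and 0, 0, 0 and 2 lower at p under 0.05 with no adjustment. The 7 septal cholinergic markers summed to 2.17 to 6.91 CPM. The part of these markers in the receptor values was not tested.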

How the data were processed

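RNA from hippocampus was sequenced as 50-base single reads in 4 libraries, 2 per genotype, and groups came from the genotype labels. The authors deposited raw read counts per gene symbol, and per the submitters' processing notes CASAVA 1.8.2, TopHat2 2.0.8b and HTSeq were used with the mm9 build, while the series text names a human build. For the annotation and HTSeq's strand setting the sources used here give nothing. The labels do not say that the 2 libraries of a genotype are separate animals, and p-values then cover just the spread of these samples, possibly a technical one. HTSeq's summary rows (14.7% to 15.7% of uniquely placed reads in no gene) stayed out of the tests.

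Genotypes were compared with edgeR 4.0.16 in R 4.3.3 (TMM, filterByExpr, quasi-likelihood F test without further terms) over 14978 genes, with Benjamini-Hochberg adjustment at 0.05. Standard errors came from the F statistic. DESeq2 1.42.0, edgeR's exact test, limma-voom (limma 3.58.1), RLE size factors, other count filters, a block on the replicate number and fits without each library were alternatives. The test was checked on simulated data. Counting error limits genes with few reads: 3 reads correspond to 0.134 to 0.171 CPM. Transcript lengths and exon overlaps came from GENCODE vM21 (GRCm38), a newer build than mm9, matched by symbol. Of the 36 tested receptor genes 35 are named, and 1 is counted but not reported here, untested ones are given by their reads, and each pathway or marker list by up to 4 genes with the smallest p. The members and lists were chosen with earlier results of these data known.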

Additional observations from a re-analysis of the deposited data

How the results depend on the processing

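Of 373 recomputed fold changes of 35 tested receptor genes, 352 kept their direction and their side of the threshold, 6 newly passed it and 15 changed direction, and 25 genes kept their direction under each alternative they had. In the main test 0 receptor genes had an adjusted p under 0.05. The number was 1 with DESeq2, 1 with edgeR's exact test and 1 with the replicate number as a block. Of all genes 3.09%, 5.07% and 3.78% passed in these fits. With RLE size factors 0 receptor genes and 0.113% of all genes passed. With genes of at least 1 read these were 0 and 1.94%. The number higher at an unadjusted p under 0.05 was 3 in the main test. It was 1 with a mean of at least 50 reads, 1 with DESeq2 and 2 with the replicate block. These fits held 25, 48 and 36 receptor genes, and the shares of all genes higher in them were 9.96%, 6.01% and 9.29%. Drd2 and Chrnb1, with means of 47.5 and 38.75 reads, were left out by the filter of 50 reads and not tested there. The number lower, also 3, was 2 to 5 with each library left out: 5 both without FLOXED 1 (where 3.60% of all genes were lower) and without PELP1 FBKO 1 (3.26%), and 2 both without FLOXED 2 (12.2%) and without PELP1 FBKO 2 (5.78%). The median log2 fold change, 0.02, went to -0.10 without FLOXED 1 and lay between -0.10 and 0.0811 over the libraries left out, and was 0.10 with genes of at least 1 read and 0.0939 with DESeq2, each over 48 receptor genes. Chrnb2 reversed with a mean of at least 50 reads (0.0027). With each library left out, log2 fold changes that changed direction ranged from -0.24 to 0.0927 for Chrm1, -0.60 to 0.64 for Chrna2, -0.0922 to 0.54 for Chrna4, -0.30 to 0.44 for Chrna7, -0.11 to 0.0909 for Chrnb2, -0.36 to 1.10 for Chrnb4, -0.28 to 0.0426 for Drd1a, -0.43 to 0.0049 for Htr1a, -0.79 to 0.0066 for Htr1b and -0.24 to 0.48 for Htr6. Where a genotype keeps 1 library, that library is assumed to vary like the others. For a gene whose genotypes do not overlap, leaving out 1 library can hardly change its direction. The cause of these shifts was not tested. Same-numbered libraries of the genotypes share a number and nothing in the labels pairs them; their deviations from the group means correlated at -0.11 over 14978 genes, and the block moved the genes called in all from 0 to 566. With the numbers crossed, added after seeing the data, 314 genes and 0 receptor genes were called, with 5 receptor genes higher (11.9% of all genes) and 4 lower (8.27%) at p under 0.05 with no adjustment.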
